A study of Homo sapiens with 15 samples.

Results

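The cytosolic ribosomal protein genes were described across 5 groups of HEK293T cells, an established human embryonic kidney line that carries the SV40 large T antigen. The genes were taken by symbol: every protein-coding gene of the GENCODE release 29 annotation whose symbol begins with RPL or RPS, without the RPS6 kinases, RPS19BP1, RPS4Y1 and RPS4Y2, RPS27L and names that look like pseudogenes. This gave 87 genes of the 58735 listed, 32 named RPS and 55 named RPL. The rule used no measured value, but the set was chosen with earlier results of these data known. Non-target cells had received the lentiCRISPRv2 vector, which carries Cas9, a guide RNA and puromycin resistance, with a guide against no human gene. The cells of the other groups, RHBDD2-CKO, MLPH-CKO, MAGI2-CKO and C9orf89-CKO, had received the same vector with a guide against the named gene (C9orf89 is the older name of CARD19). All 5 groups were selected with puromycin and obtained by limiting dilution, so each stood for 1 line, and a difference between lines cannot be told apart from the effect of the edited gene. Every group was kept in Dulbecco's modified Eagle's medium and gave 3 libraries of mRNA, from 3 wells of a plate. The p-values below therefore measured the spread between wells of a line. Non-target was the same 3 libraries in all 4 comparisons.

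The edited genes checked the labels only in part. CARD19 was at 6.56 ± 1.04 FPKM (fragments per kilobase of exon, scaled for library depth by the authors; SD, n = 3) in Non-target and 4.32 ± 0.0421 in C9orf89-CKO (-0.58 on the log2 scale; limma, adjusted p = 0.000977). It was also lower in RHBDD2-CKO, at 4.79 ± 0.339 (-0.44; limma, adjusted p = 0.00489), so this fall was not confined to its own line. RHBDD2 was at 33.5 ± 5.503 in Non-target, 12.4 ± 1.18 in RHBDD2-CKO and 13.8 ± 2.15 in MAGI2-CKO. MLPH was listed at 0 in all 15 libraries and MAGI2 lay between 0.0523 and 0.123, so neither could check its line. All 8 markers listed for HEK293T cells passed the filter on low values, with VIM the highest. Their summed level was 123 to 128 FPKM in Non-target, 68.7 to 76.9 in RHBDD2-CKO and 188 to 195 in MLPH-CKO. The 10 monocyte markers summed to 0.384 to 1.18 FPKM and the 10 mesenchymal markers to 3.34 to 6.36, with COL1A1 the highest.

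The ribosome of the cytosol joins a small 40S subunit, built on 18S rRNA with the RPS proteins, and a large 60S subunit, built on 28S, 5.8S and 5S rRNA with the RPL proteins. The RPLP proteins form the stalk of the large subunit, which recruits the translation factors. Most of these proteins are made from a single active gene, but some have an expressed paralogue, such as RPL22 with RPL22L1. Their mRNAs are among the most abundant of a growing cell and typically start with a 5′-terminal oligopyrimidine (TOP) tract, a cytosine and then a run of pyrimidines, through which mTORC1 and LARP1 set their translation.

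The start of the mRNA was shown for the genes on which the results turn. In the RefSeq promoter sequences (GRCh38.p14), 69 of the 87 genes had an entry. A run of at least 5 pyrimidines with C first, on the gene's strand and beginning within 5 bases of the annotated start, was found in 56 of the 69 (81.2%) and in 25.2% of all 27305 genes with an entry. For a gene with several annotated starts, the one with the longest run was used. Each line gives 10 bases before and 20 bases from the start onward, with that run in capitals. In RPL27 no such run began within those 5 bases; the pyrimidines at the end of its window began farther from the start.
RPL22 (chr1:6199576-6199605, minus strand): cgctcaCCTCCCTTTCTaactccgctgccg
RPL22L1 (chr3:170870176-170870205, minus strand): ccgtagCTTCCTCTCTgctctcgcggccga
RPL27 (chr17:42998409-42998438, plus strand): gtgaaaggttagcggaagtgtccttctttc
RPL4 (chr15:66504836-66504865, minus strand): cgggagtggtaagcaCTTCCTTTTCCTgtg
RPLP1 (chr15:69452808-69452837, plus strand): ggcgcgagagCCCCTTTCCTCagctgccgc
RPL10 (chrX:154398367-154398396, plus strand): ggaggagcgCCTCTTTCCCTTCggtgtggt
RPS23 (chr5:82278335-82278364, minus strand): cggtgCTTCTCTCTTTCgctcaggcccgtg
RPL38 (chr17:74203668-74203697, plus strand): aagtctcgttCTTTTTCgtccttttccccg

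In Non-target cells as in the CKO clones, the ribosomal protein genes were among the most abundant. Of the 87 genes, 65 had a mean of at least 100 FPKM over the 15 libraries and 9 a mean under 10. The median of the 83 genes that passed the filter was 270 FPKM, against 4.29 for all 16175 genes tested. Of the 100 most abundant genes, 41 were ribosomal protein genes. RPS2, which lies near the mRNA entry of the small subunit, was highest at a mean of 1911 FPKM. RPL41, the shortest protein of the large subunit, followed at 1149.7, then RPL8 at 1133, RPS12 at 994 and RPL13A at 923.

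Among the lowest tested genes were RPL17 at 6.66 FPKM, RPL36A at 2.47, RPS10 at 1.21 and RPL3L, a copy of RPL3 known from striated muscle, at 0.522. These levels rest on the annotation: the merged exon length that divides the fragments was 1.92 to 57.6 times the coding length (median 5.90), largest for RPS29. RPS10 shared 39.4% and RPL17 35.3% of their exon bases with other annotated genes, and 77 of the 87 genes had pseudogenes named after them. How shared fragments were counted is not given in the sources used here, so the level of such a gene is uncertain. RPL10L, RPS10-NUDT3, RPL17-C18orf32 and RPL36A-HNRNPH2 did not pass the filter and were not tested.

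The number of fragments on genes, recovered from the values, lay between 15517856 and 19489918 per library. Ribosomal protein genes took 8.82%, 9.07% and 8.51% of the fragments in the Non-target libraries. The shares were 9.30%, 8.83% and 9.09% in MAGI2-CKO, 8.59%, 8.27% and 8.37% in C9orf89-CKO and 9.85%, 8.28% and 7.81% in MLPH-CKO. In RHBDD2-CKO they were 8.19%, 7.09% and 6.98%, so that every RHBDD2-CKO library lay below the Non-target range. MLPH-CKO libraries lay on both sides of it. A lower share of fragments cannot tell less mRNA of these genes from more of others, nor a change in every cell from one in some cells.

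Replicate 1 of each group stood apart from replicates 2 and 3, and among ribosomal protein genes the short ones and those with less GC in the coding sequence were shifted upward more. Against the mean of replicates 2 and 3, the 10 genes with a coding sequence under 300 bases had a median log2 difference of 0.45 in Non-target, 1.02 in MLPH-CKO, 0.85 in RHBDD2-CKO, 0.63 in C9orf89-CKO and 0.39 in MAGI2-CKO. The 73 longer genes had medians of 0.04 to 0.35, and all genes tested had medians between -0.02 and 0.01. Over the 78 genes with a mean of at least 10 FPKM, the Pearson correlation of this difference with coding GC was -0.558 in Non-target, -0.557 in MAGI2-CKO, -0.433 in RHBDD2-CKO, -0.314 in MLPH-CKO and -0.30 in C9orf89-CKO. With coding length it was -0.345, -0.243, -0.287, -0.346 and -0.323 in the same groups, as a description over genes that share their libraries. Genes named for this difference were chosen after their values were seen.

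RPS23, a protein of the decoding centre of the small subunit, was at 137, 94.1 and 83.1 FPKM in Non-target, 114, 23.4 and 33.0 in C9orf89-CKO and 147, 79.7 and 96.6 in MAGI2-CKO. It was at 169.7, 23.6 and 24.5 in MLPH-CKO and 114, 20.9 and 22.8 in RHBDD2-CKO. Replicate 1 was the highest library of every group. RPL38, a small protein of the large subunit, showed the same order, with 140.5 against 61.3 and 53.5 in RHBDD2-CKO. RPS28 went the other way in all 5 groups, for example 83.1 against 166 and 173 in Non-target. Mitochondrial mRNA moved with it in some groups only: it took 2.47% of the fragments in replicate 1 of Non-target and 1.47% and 1.504% in the others, and 1.51%, 1.61% and 1.58% in RHBDD2-CKO. In MLPH-CKO, where the short genes differed most, replicate 1 was the lowest, at 2.33% against 3.59% and 2.62%. In C9orf89-CKO it was the highest, at 2.83% against 1.71% and 1.68%, and in MAGI2-CKO too, at 3.00% against 2.22% and 2.38%. The part of RNA or library handling in this difference was not tested, and counts are given below with all libraries and with replicates 2 and 3 only.

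**Figure D1:**
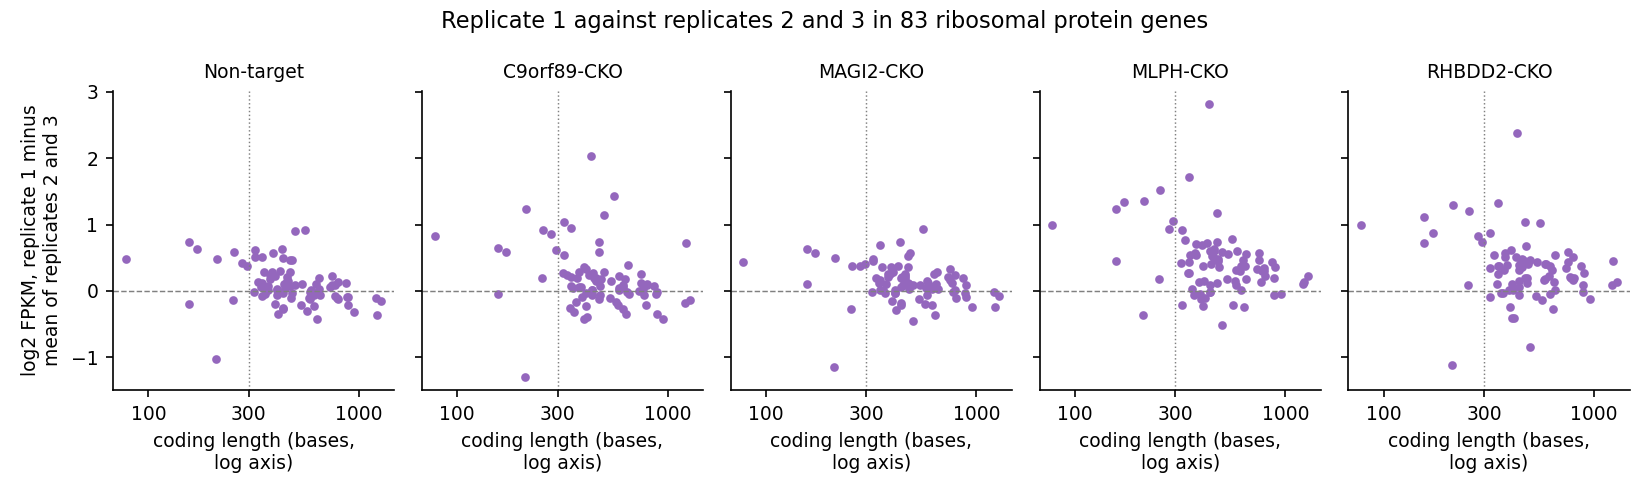
Difference in log2 FPKM between replicate 1 and the mean of replicates 2 and 3 (vertical axis) against the coding length in bases (horizontal axis, log scale) for 83 ribosomal protein genes in each group, with 1 point per gene and a dotted line at 300 bases. Genes under 300 bases lie mostly above 0, with medians of 0.39 to 1.02, and RPS28 lies below 0 in every group.

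The largest difference among the groups in any ribosomal protein gene was that of RPL22L1, the paralogue of RPL22 (chromosome 3, 170864875 to 170870483). Its level was 65.7, 64.3 and 60.5 FPKM in Non-target, 21.6, 24.5 and 24.2 in C9orf89-CKO and 13.5, 13.8 and 13.8 in MAGI2-CKO. It was 19.8, 22.5 and 19.0 in MLPH-CKO and 16.1, 16.2 and 16.9 in RHBDD2-CKO. All CKO libraries lay below the lowest Non-target value. RPL22L1 fell by 2.20 in MAGI2-CKO, by 1.95 in RHBDD2-CKO, by 1.63 in MLPH-CKO and by 1.43 in C9orf89-CKO on the scale of log2(FPKM + 0.1) (SE 0.07 each). With limma and Benjamini-Hochberg adjustment over all genes tested, the adjusted p ranged from 6.45e-10 to 2.18e-08. The clones also differed from each other: RPL22L1 was lower in MAGI2-CKO than in C9orf89-CKO by a log2 difference of -0.77 (limma, adjusted p = 6.3e-06), and only MLPH-CKO against C9orf89-CKO did not pass (-0.20, adjusted p = 0.0696).

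RPL22, a protein of the large subunit that also binds RNA outside the ribosome (chromosome 1, 6185020 to 6209389), moved in the other direction. It was at 29.9, 24.8 and 24.0 FPKM in Non-target, 44.7, 43.2 and 42.2 in C9orf89-CKO, and 51.4, 44.1 and 42.2 in MAGI2-CKO. MLPH-CKO had 40.6, 36.7 and 37.4 and RHBDD2-CKO had 48.6, 36.4 and 38.2. All 12 CKO libraries lay above all 3 Non-target libraries. RPL22 rose by log2 values of 0.73, 0.81, 0.55 and 0.64, in the order C9orf89, MAGI2, MLPH, RHBDD2 that is kept below, (SE 0.11; limma, adjusted p 0.000482, 0.000126, 0.00291 and 0.000946). None of the 6 differences between CKO clones in RPL22 passed the threshold.

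Within a library, RPL22L1 was 2.43 ± 0.208 (SD, n = 3) times the level of RPL22 in Non-target on the FPKM scale. The ratio was 0.301 ± 0.0340 in MAGI2-CKO, 0.406 ± 0.0648 in RHBDD2-CKO, 0.536 ± 0.0669 in MLPH-CKO and 0.542 ± 0.0506 in C9orf89-CKO. RPL22L1 was thus the higher of the pair in every Non-target library and the lower in every CKO library. The ratio does not depend on the scaling between libraries. Per library, 610 to 2468 fragments fell on RPL22L1 and 1801 to 4676 on RPL22.

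**Figure D2:**
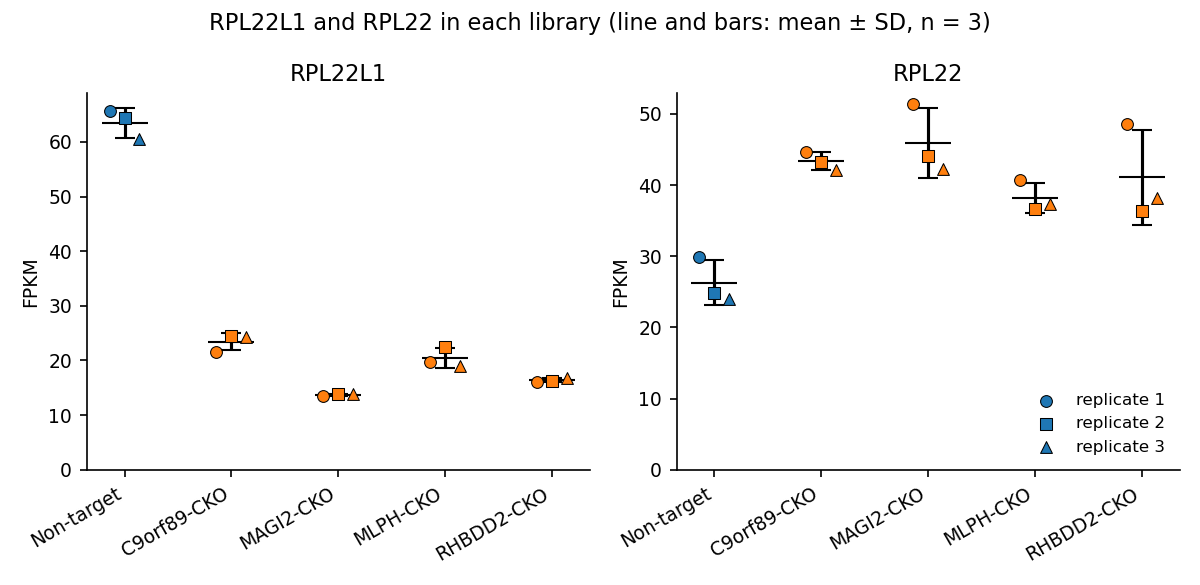
FPKM of RPL22L1 (left) and RPL22 (right) in each of the 15 libraries, with 1 point per library, marked by replicate, and the mean ± SD of 3 libraries. RPL22L1 lies at 60.5 to 65.7 in Non-target and at 13.5 to 24.5 in the CKO clones, while RPL22 lies at 24.0 to 29.9 in Non-target and at 36.4 to 51.4 in the CKO clones.

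Among the 100 tested genes nearest to RPL22, the median log2 fold change was 0.47, 0.50, 0.48 and 0.50 in the 4 clones, so RPL22 lay in a stretch of chromosome 1 that was higher in all 4. The 100 nearest to RPL22L1 had medians of -0.01, -0.03, -0.01 and -0.05. Whether the number of gene copies differed between the lines was not tested.

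The other paralogues did not show such an exchange. RPL3 stayed between 498 and 609 FPKM in all libraries. Its low copy RPL3L, at 0.181 to 0.351 FPKM, lay under the filter limit of 0.5 FPKM in every Non-target library. RPL3L was thus tested only because CKO libraries reached that limit. It rose in MAGI2-CKO, MLPH-CKO and C9orf89-CKO by log2 values of 1.35, 1.28 and 0.88 (limma, adjusted p 0.00252, 0.0047 and 0.0386), on 8 to 49 fragments a library. Since the filter favoured such a rise, these values are descriptions, and no conclusion is drawn from their adjusted p. The call of RPL3L in C9orf89-CKO held in 5 of 11 other settings and in 9 of 15 fits without 1 library, and the log2 value ran from 0.30 to 1.12 there and from 0.50 to 1.67 in MAGI2-CKO, lowest with a pseudocount of 1. RPL7 and RPL7L1 passed in no clone, with group means of 377 to 419.7 FPKM and 56.4 to 64.9 FPKM. RPL7L1 in C9orf89-CKO, at 0.19 on the log2 scale, did pass in 12 of 27 other settings and fits without 1 library. RPL26 passed in no clone, while RPL26L1 fell by 0.53 in MLPH-CKO (limma, adjusted p = 0.0224), from 64.9, 69.6 and 63.5 to 60.3, 46.6 and 34.2 FPKM. This call held in 12 of 15 fits without 1 library, where the log2 value ran from -0.72 to -0.31. RPL39 and RPL39L passed in no clone. RPL36AL passed in none either, and RPL36A rose by 0.86 in MAGI2-CKO (limma, adjusted p = 0.0213), from 2.25, 1.42 and 1.45 to 3.85, 2.89 and 2.69 FPKM.

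Across the ribosomal protein genes as a whole, most log2 fold changes were small. Past an adjusted p of 0.05 (limma), 11 of 83 genes differed from Non-target in C9orf89-CKO, 5 higher and 6 lower (13.3%, against 26.0% of all genes tested). In MAGI2-CKO 15 differed, 11 higher and 4 lower (18.1% against 36.1%, with 17.0% of all genes higher and 19.1% lower), and in MLPH-CKO 13 differed, 7 higher and 6 lower (15.7% against 30.1%). In RHBDD2-CKO 24 differed, 4 higher and 20 lower (28.9% against 34.1%). The higher genes included RPL3L in every clone except RHBDD2-CKO. Since the filter favoured its rise, no conclusion is drawn from its part in these counts or in later ones. Without replicate 1 of RHBDD2-CKO, the share of ribosomal protein genes called in this clone was the higher of the 2 (44.6% against 31.7%), and also with the replicate number as a block (59.0% against 43.5%), with voom on the recovered fragments (37.3% against 34.2%) and without the filter on low values (19.5% against 16.4%). The medians of the 83 log2 fold changes were -0.10, 0.01, -0.06 and -0.29 in this order, beside medians of all genes tested within 0.01 of 0. Without 1 library, the median ran from -0.03 to 0.07 in MAGI2-CKO and from -0.20 to 0.03 in MLPH-CKO. Of the 83 genes, 49 passed in no clone (59.0%, against 38.5% of all genes tested), and 9 passed with at least a 1.5-fold change in some clone (10.8% against 32.1%). RPL3L was among these 9. The moderated F test over the 5 groups called 30 of the 83 (36.1%), against 61.0% of all genes tested. With the replicate number as a block, it called 63 (75.9%, against 71.9%), so the order of the 2 shares depended on the block.

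With replicates 2 and 3 only, the counts were larger. In C9orf89-CKO 11 genes were higher and 24 lower (background 32.4% called), and in MAGI2-CKO 17 were higher (18.7% of all genes) and 8 lower (40.4% called). In MLPH-CKO 12 were higher and 36 lower (36.9%, with 20.3% of all genes lower), and in RHBDD2-CKO 6 were higher and 61 lower (42.0%). RPS23 then fell by log2 values of 2.02 in RHBDD2-CKO, 1.87 in MLPH-CKO and 1.67 in C9orf89-CKO (limma, adjusted p 9.69e-05, 0.00016 and 0.000339), but was at -0.01 in MAGI2-CKO. With all 3 replicates, RPS23 passed in no clone. With replicates 2 and 3 only, the share of ribosomal protein genes called was above that of all genes in C9orf89-CKO (42.2%), MLPH-CKO (57.8%) and RHBDD2-CKO (80.7%) and below it in MAGI2-CKO (30.1%). The F test over the 5 groups on these libraries called 75 of the 83 (90.4%, against 67.8% of all genes).

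**Figure D3:**
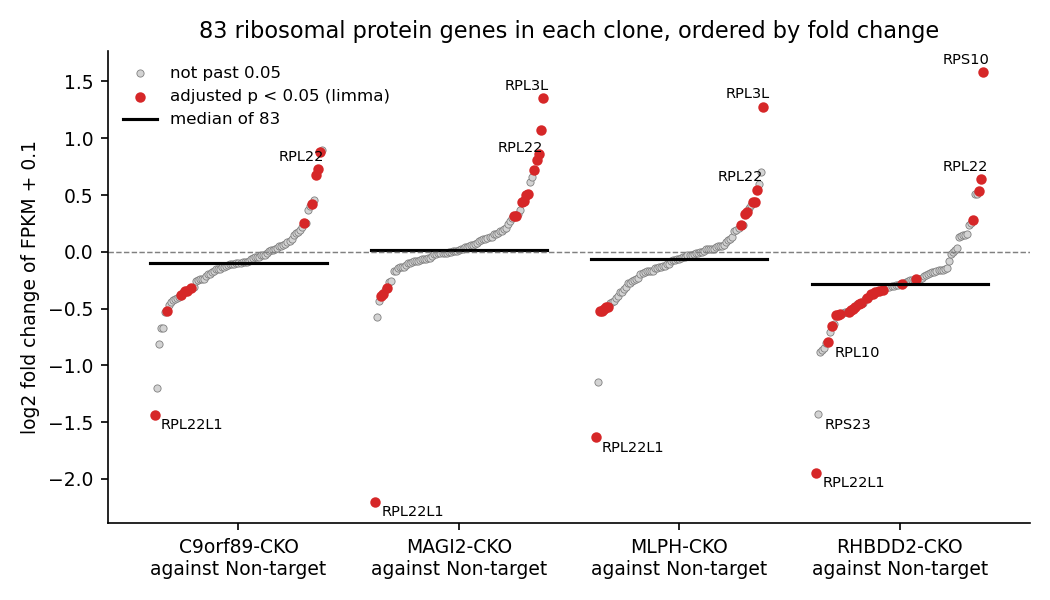
Log2 fold change of FPKM + 0.1 against Non-target (vertical axis) for 83 ribosomal protein genes in each CKO clone, ordered by fold change, with red points past an adjusted p of 0.05 (limma) and a black line at the median. RPL22L1 is the lowest point in all 4 clones, and the median of RHBDD2-CKO, at -0.29, lies below those of the other clones.

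RHBDD2-CKO showed the broadest shift, toward lower levels with the authors' scaling. Of the 83 genes, 68 had a negative log2 fold change, 43 of 52 of the large subunit and 25 of 31 of the small subunit. Those lower past the threshold were 12 RPL genes and 8 RPS genes, 24.1% of the 83 against 16.7% of all genes tested. Of the 8 HEK293T markers, 4 were also lower in this clone and their summed level was below that of Non-target, and the part of this in the result was not tested. The stalk base RPLP0 fell by 0.65 (limma, adjusted p = 0.00237), from 604, 790.1 and 724 FPKM to 422, 460.5 and 456. RPL13A fell by 0.41 (adjusted p = 0.0126) and RPLP2 by 0.34 (adjusted p = 0.0408), both by limma. RPLP2 passed in 6 of the 15 fits that left out 1 library. RPS19, a small subunit gene mutated in Diamond-Blackfan anaemia and named after its values were seen, fell by 0.55 in RHBDD2-CKO (limma, adjusted p = 0.000431), and was 339, 429.9 and 387 FPKM in Non-target and 269, 263 and 255 in this clone.

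The counts depended on the scaling between libraries. The authors' scaling left all genes tested at a median log2 fold change of 0.00 in RHBDD2-CKO. When FPKM were divided by their sum in each library, that median became 0.15, the median of the ribosomal protein genes -0.13, and 7 of them were higher and 12 lower, where 26.9% of all genes were higher and 9.68% lower. The median of the ribosomal protein genes lay 0.28 below that of all genes (-0.281), close to the -0.287 with the authors' scaling. After quantile normalization their median was -0.05, with 9 higher and 7 lower, where 17.7% of all genes were higher and 15.3% lower, and the difference from the median of all genes was -0.066. In MAGI2-CKO quantile normalization gave 10 higher and 8 lower, where 35.4% of all genes were called and 19.2% were lower. Quantile normalization gives every library the same set of values by rank, and 41 of the 100 most abundant genes were ribosomal protein genes. Whether this moved their medians was not tested. RPL4 and RPS20 in RHBDD2-CKO kept a negative sign under these scalings but passed the threshold under neither, and so did RPLP2. RPL13A was at -0.11 after quantile normalization and no longer passed, and at -0.25 after division by the sum, where it passed.

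RPL10, a large subunit protein near the peptidyl transferase centre (X chromosome, 154389955 to 154409168), was lower in RHBDD2-CKO. It was at 413, 421 and 389 FPKM in Non-target and 249.7, 234 and 220.4 in RHBDD2-CKO, with no overlap, while the other clones lay between 355 and 501.5. RPL10 fell by 0.80 in RHBDD2-CKO (SE 0.11; limma, adjusted p = 9.8e-05) and was lower there than in each of the other 3 clones by log2 differences of -0.92 (MAGI2-CKO), -0.86 (C9orf89-CKO) and -0.85 (MLPH-CKO; limma, adjusted p at most 5.21e-05). The 100 genes nearest to RPL10 had a median of -0.50 in RHBDD2-CKO and of 0.03 to 0.06 in the other clones. Of the exon bases of RPL10, 55.5% were shared with other annotated genes.

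RPL4 and RPLP1, both on chromosome 15, were higher in MAGI2-CKO and MLPH-CKO. RPL4, a large subunit protein that lines the exit tunnel, was at 499.7, 564 and 543 FPKM in Non-target, 452, 413 and 407 in RHBDD2-CKO, 807, 715 and 665 in MLPH-CKO and 701, 727 and 745 in MAGI2-CKO. It fell by 0.34 in RHBDD2-CKO and rose by 0.44 in both MLPH-CKO and MAGI2-CKO (SE 0.09; limma, adjusted p 0.0123, 0.00265 and 0.00219). RPLP1, an acidic stalk protein, was at 498, 501 and 456 FPKM in Non-target, 727, 650.1 and 683 in MAGI2-CKO and 744, 658 and 579 in MLPH-CKO. RPLP1 rose by 0.50 and 0.44 (limma, adjusted p 0.00235 and 0.00693). The 100 nearest genes had medians of 0.33 to 0.41 around both genes in these clones.

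RPS20, a protein of the head of the small subunit, differed in both directions. It was at 170.5, 185 and 168 FPKM in Non-target, 179, 227 and 220.5 in C9orf89-CKO, 223, 210.0 and 227 in MLPH-CKO and 141, 145 and 145 in RHBDD2-CKO. It rose by 0.33 in MLPH-CKO and by 0.25 in C9orf89-CKO and fell by 0.28 in RHBDD2-CKO (SE 0.08; limma, adjusted p 0.00841, 0.0383 and 0.0192). RPS20 in C9orf89-CKO passed in 7 of the 15 fits that left out 1 library. RPS15A, another small subunit gene, rose by 0.67 in C9orf89-CKO and by 0.54 in RHBDD2-CKO (limma, adjusted p 0.00488 and 0.0135), from 25.3, 16.8 and 17.0 FPKM to 29.6, 35.3 and 28.3 and to 28.4, 27.8 and 28.3. RPS10 rose by 1.07 in MAGI2-CKO and 1.58 in RHBDD2-CKO (limma, adjusted p 0.0385 and 0.0056), on 15 to 98 fragments a library. The RPS10 call in MAGI2-CKO held in 9 of 12 other settings and 11 of 15 fits without 1 library, and the log2 value ran from 0.54 to 1.52 there and from 0.88 to 2.16 in RHBDD2-CKO.

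In all 4 clones, 4 ribosomal protein genes passed in the same direction (4.82%, against 6.65% of all genes tested): RPL22L1 and RPL32 lower, RPL22 and RPL27 higher. RPL32 was named after its values were seen. It was at 293, 316 and 295 FPKM in Non-target and at 172 to 256 in the CKO libraries, and fell by 0.35, 0.32, 0.48 and 0.50 (limma, adjusted p 0.00446 to 0.0419). RPL27, another large subunit gene, was at 408, 418 and 383 FPKM in Non-target and at 468 to 570.3 in the CKO libraries, and rose by 0.42, 0.32, 0.35 and 0.28 (limma, adjusted p 0.00297 to 0.021). Its call in RHBDD2-CKO held in 10 of 12 other settings and 12 of 15 fits without 1 library, and in MAGI2-CKO in 10 and 14. The 4 comparisons share the Non-target libraries, so these 4 results are not independent of each other.

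Several of these genes lay in stretches whose other genes moved the same way. The 100 tested genes nearest to RPL27 on chromosome 17 had medians of 0.41, 0.46, 0.47 and 0.27 in the 4 clones, and those around RPL32 on chromosome 3 medians of -0.36, -0.37, -0.32 and -0.23. RPSA and RPL15, also on chromosome 3, fell in MAGI2-CKO by 0.39 and 0.37 (limma, adjusted p 0.00883 and 0.0329), and their neighbours had medians of -0.37 and -0.43 there. The RPL15 call in this clone held in 9 of 15 fits without 1 library. In RHBDD2-CKO, RPSA fell by 0.56 and RPL15 by 0.55 (limma, adjusted p 0.000997 and 0.00402), where their neighbours had medians of -0.235 and -0.231. RPL15 also fell by 0.49 in MLPH-CKO (limma, adjusted p = 0.0092; neighbours -0.38) and RPSA by 0.32 in C9orf89-CKO (limma, adjusted p = 0.0313; neighbours -0.37). The RPSA call in C9orf89-CKO held in 7 of 12 other settings. It held in 12 of 15 fits without 1 library, where the log2 value ran from -0.40 to -0.20. RPL29, on the same chromosome, fell by 0.53 in MLPH-CKO (limma, adjusted p = 0.01), where its neighbours had a median of -0.26. RPS3A on chromosome 4, named after its values were seen, fell by 0.50 in MLPH-CKO (limma, adjusted p = 0.0148; neighbours -0.42), and RPL26L1 on chromosome 5 had neighbours at -0.41.

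Across the 83 genes, the log2 fold change and the neighbours' median had Spearman correlations of 0.41, 0.52, 0.47 and 0.28, clones in the same order. The same correlations over all 16175 genes tested were 0.28, 0.42, 0.37 and 0.27. Genes share libraries and neighbouring genes share neighbours, so these are descriptions. Where the neighbours' median was at least 0.2 away from 0, a limit chosen after the values were seen, 4 of 14, 9 of 22, 9 of 22 and 9 of 14 ribosomal protein genes passed the threshold. Elsewhere 7 of 69, 6 of 61, 4 of 61 and 15 of 69 did. Over all genes tested, the shares were 48.2%, 52.3%, 49.0% and 49.1% near such stretches and 22.1%, 29.7%, 23.9% and 30.9% elsewhere.

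Between the CKO clones, the share of ribosomal protein genes past the threshold was below that of all genes in every pair with all libraries and the group term only. With the replicate block it was above in RHBDD2-CKO against MAGI2-CKO (60.2% against 49.9%) and below in the other pairs. With replicates 2 and 3 only, it was above in every pair (for example 69.9% against 45.8% in RHBDD2-CKO against MAGI2-CKO). In RHBDD2-CKO against MAGI2-CKO, 1 ribosomal protein gene was higher and 23 lower (background 41.6% called), and against MLPH-CKO 14 differed, all lower (limma; 37.0%, with 18.7% of all genes higher and 18.4% lower). After quantile normalization these pairs gave 7 higher and 12 lower against MAGI2-CKO and 9 and 9 against MLPH-CKO, where 23.1% and 20.2% of all genes were higher and 19.1% and 17.3% lower. After division by the sum they gave 6 and 10 and 8 and 8, where 31.6% and 28.2% of all genes were higher and 12.4% and 11.5% lower. The difference between the medians of the ribosomal protein genes and of all genes was -0.266 and -0.215 with the authors' scaling, -0.257 and -0.206 after division by the sum and -0.085 and -0.023 after quantile normalization. Without replicate 1 of MLPH-CKO, the difference for RHBDD2-CKO against MLPH-CKO was -0.051 with the authors' scaling, with 3 ribosomal protein genes higher and 12 lower (33.1% of all genes called). In RHBDD2-CKO against C9orf89-CKO, 1 was higher and 7 lower (29.3%). The other 3 pairs of clones gave 8 genes (MAGI2-CKO against C9orf89-CKO; 22.5%, with 9.76% higher), 6 genes (MLPH-CKO against C9orf89-CKO; 14.2%, with 6.63% higher and 7.61% lower) and 4 genes (MLPH-CKO against MAGI2-CKO; 21.2%, with 9.4% lower). RPL4 was lower in RHBDD2-CKO than in MAGI2-CKO by a log2 difference of -0.77 (limma, adjusted p = 2.08e-05) and RPLP0 passed against all 3 other clones.

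Genes that work beside the ribosomal proteins were counted from lists chosen for this purpose. FAU, which encodes a ubiquitin-like fusion with a ribosomal protein, and RACK1, a scaffold on the small subunit, passed in no clone, with group means of 195 to 220.4 and 294 to 390.3 FPKM. RPS27A, a ubiquitin fusion and a member by its symbol, rose by 0.23 in MLPH-CKO (limma, adjusted p = 0.0479) and was named after its values were seen. Of 14 tested translation factors with TOP mRNAs, 2 were lower in MLPH-CKO, 3 were lower in RHBDD2-CKO and 1 was higher in C9orf89-CKO, with medians of -0.03, -0.22 and 0.01. These shares of 14.3%, 21.4% and 7.14% lay below those of all genes tested (30.1%, 34.1% and 26.0%). In MAGI2-CKO 0 of the 14 passed, against 36.1% of all genes tested. Their median there was 0.10, and 11 of the 14 had a log2 fold change above 0, as did 8054 of all 16175 genes. In RHBDD2-CKO 12 of the 14 lay below 0, as did 8044 of all genes. EIF3F, a subunit of initiation factor 3, fell by 0.34 in MLPH-CKO and by 0.46 in RHBDD2-CKO (limma, adjusted p 0.0245 and 0.00412). Its neighbours had medians of -0.235 and -0.004 there. The EIF3F call in MLPH-CKO held in 9 of 12 other settings and 12 of 15 fits without 1 library. NPM1, a nucleolar chaperone, fell by 0.50 in MLPH-CKO (limma, adjusted p = 0.0411; neighbours -0.39), a call that held in 6 of the 15 fits without 1 library. EEF1G was listed at 0 in all libraries. Since the counting options are not given, this 0 does not show that its mRNA was absent.

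Of 49 tested genes of ribosome assembly, 12, 15, 13 and 4 were lower and 2, 3, 4 and 8 higher in the 4 clones, the last of these RHBDD2-CKO. The shares called were 28.6%, 36.7%, 34.7% and 24.5%, against 26.0%, 36.1%, 30.1% and 34.1% of all genes tested. Their medians on the log2 scale were -0.19, -0.12, -0.14 and 0.03. NOL6, which takes part in small subunit assembly, fell in all 4 clones by 0.85, 1.05, 0.83 and 0.49 (limma, adjusted p 5.14e-05 to 0.0123). MRTO4, which acts on the stalk base of the large subunit, rose in all 4 by 0.34, 0.38, 0.31 and 0.54 (limma, adjusted p 0.000239 to 0.0108), and its neighbours on chromosome 1 had medians of 0.38 to 0.50.

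Of 13 genes that control ribosomal protein synthesis, 5, 5, 6 and 7 passed in the 4 clones (38.5%, 38.5%, 46.2% and 53.8%, against 26.0%, 36.1%, 30.1% and 34.1% of all genes tested). These counts include MYCN in every clone but MLPH-CKO. MYCN may have reached the filter limit only through C9orf89-CKO, so no conclusion is drawn from its part in these shares. MTOR, the kinase of mTORC1, lies on chromosome 1 and rose by 0.70, 0.76, 0.53 and 0.74 (limma, adjusted p 5.08e-06 to 0.000143), with neighbours at 0.39 to 0.47. It was at 9.90, 9.09 and 10.1 FPKM in Non-target and at 13.0 to 17.1 in the CKO libraries. MYC, a transcription factor with many ribosomal protein genes among its targets, fell by 1.05 in C9orf89-CKO and by 0.88 in MLPH-CKO (limma, adjusted p 6.3e-05 and 0.000205), from a mean of 70.1 to 33.9 and 37.9 FPKM. In MAGI2-CKO and RHBDD2-CKO MYC was at means of 83.3 and 80.9 FPKM and did not pass. Of the 16 listed ribosomal protein genes tied to Diamond-Blackfan anaemia, 2, 5, 2 and 5 passed (12.5%, 31.2%, 12.5% and 31.2%), each share below that of all genes tested.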

How the data were processed

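mRNA of 15 HEK293T libraries was prepared and sequenced by the authors, and their processing notes name HISAT2 2.0.5, featureCounts 1.5.0-p3 and DESeq2. The genome build and the counting options are not given in the sources used here. The deposited FPKM were made by the authors from fragments, merged exon lengths (GENCODE release 29) and a scaling factor per library. Dividing these out gave whole fragments for 100% of the values (tolerance 0.02), with 15517856 to 19489918 fragments per library.

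Groups came from the labels. FPKM were tested as log2(FPKM + 0.1) with limma 3.58.1 in R 4.3.3 (empirical Bayes with trend, group term only, all 15 libraries), over the 16175 genes that reached 0.5 FPKM in 3 or more libraries. Adjusted p are Benjamini-Hochberg values over all of these genes, with a threshold of 0.05. Data were also simulated for RHBDD2-CKO against Non-target (16175 genes), with the same dispersion for every gene and no difference between replicates. In these, 64 of 100 genes changed by a log2 fold of 1 and 87 of 100 changed by 2 were recovered. The rates need not hold for the real libraries, where replicate 1 stood apart. The ribosomal protein genes and the gene lists were chosen with earlier results of these data known. Genes were named by a rule: paralogue pairs, partners, stalk genes and targets, the 5 highest, 5 lowest and 5 with the largest F, and per clone the 3 largest rises and 3 largest falls past the threshold without overlap of libraries. From each other list the largest rise and fall per clone could be named. Exceptions are said to be so. Some genes that the rule names are not reported here. Replicate numbers were not used as pairs, since the labels tie them to no shared day or batch and not every same-numbered pair correlated above 0.1. Alternatives covered filters, pseudocounts, scalings, a replicate block, limma voom on recovered fragments, and leaving out libraries.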

Additional observations from a re-analysis of the deposited data

Results flagged for a closer look

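Of the named genes, 3 passed the threshold against Non-target in opposite directions in different clones, and these clones differed by the limma test of the difference itself with Benjamini-Hochberg adjustment. RPL4 was lower in RHBDD2-CKO than in MAGI2-CKO by a log2 difference of -0.773 (adjusted p = 2.08e-05) and than in MLPH-CKO by -0.778 (adjusted p = 2.69e-05, limma), with all 3 wells of RHBDD2-CKO below all wells of both. RPS20 was lower in RHBDD2-CKO than in C9orf89-CKO by -0.533 (limma, adjusted p = 0.000333) and than in MLPH-CKO by -0.612 (limma, adjusted p = 8.55e-05). MYCN, a relative of MYC, was lower in MAGI2-CKO than in C9orf89-CKO by -2.69 (limma, adjusted p = 0.000157) and in RHBDD2-CKO than in C9orf89-CKO by -3.17 (limma, adjusted p = 2.53e-05). MYCN lay between 0 and 0.946 FPKM, on 0 to 44 fragments a library, so its fold change depended on the pseudocount. Against Non-target it ran from -3.94 to -0.29 in RHBDD2-CKO and from -2.06 to -0.23 in MAGI2-CKO, where the call held in 9 of 11 settings. MYCN was highest in C9orf89-CKO (1.58 above Non-target on the log2 scale), so it may have reached the 0.5 FPKM of the filter only there. Its differences from C9orf89-CKO are therefore descriptions, from which no conclusion is drawn. No test of single outlying wells was run in these groups of 3.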

How the results depend on the processing

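Counts below are of ribosomal protein genes past the threshold, higher then lower, clones in the order C9orf89, MAGI2, MLPH, RHBDD2; the causes of the changes were not tested. The replicate numbers were not taken as pairs, since the labels tie them to no shared day or batch and only 12 of 30 same-numbered pairs correlated above 0.1. A fit without the block leaves any difference shared by replicate number in the spread between wells. As a hint from the data, all 30 correlations were above 0 (lowest 0.00103, median 0.0856, against -0.0887 for other numbers) and 15 of 15 libraries lay closest to their own number. With the replicate block, C9orf89-CKO had 9 higher and 19 lower, MAGI2-CKO 7 lower, MLPH-CKO 14 lower, RHBDD2-CKO 44 lower, and the F test 63; of all genes, 35.4%, 44.3%, 38.9% and 43.5% were called (22.5% lower in RHBDD2-CKO) and 71.9% by F. With replicates 2 and 3 only, the counts were 11 and 24, 17 and 8, 12 and 36, and 61 lower in RHBDD2-CKO, with 75 by F (90.4%, against 67.8% of all genes). Without the filter, C9orf89-CKO had 3 and 2 and MAGI2-CKO 7 and 2, where 12.3% and 17.9% of all genes were called. Quantile normalization gave 9 higher in C9orf89-CKO, 8 lower in MAGI2-CKO and 9 and 7 in RHBDD2-CKO, with medians of 0.0012 in C9orf89-CKO and -0.048 in RHBDD2-CKO. Division by the sum gave 9 higher in C9orf89-CKO, 7 lower in MAGI2-CKO and 7 and 12 in RHBDD2-CKO, where 4350 of all genes were higher and 1566 lower. Division by the sum of the other nuclear genes, chosen after seeing the data, gave 9 higher and a median of -0.017 in C9orf89-CKO (25.8% of all genes called). In RHBDD2-CKO it gave 14 lower and 7 higher, with a median of -0.17 against 0.11 for all genes (24.9% of all genes higher, 11.4% lower). With only the 6 libraries compared, MAGI2-CKO had 7 lower, MLPH-CKO 3 and 2 and RHBDD2-CKO 2 and 12 (31.9%, 22.1% and 25.7% of all genes called).

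Between clones, MAGI2-CKO against C9orf89-CKO gave 5 genes without the filter, 20 with the block and 30 with replicates 2 and 3, where 9.95%, 31.5% and 31.2% of all genes were called. MLPH-CKO against C9orf89-CKO gave 1, 11 and 17 (5.9%, 22.5% and 19.5%), and MLPH-CKO against MAGI2-CKO gave 2, 13 and 36 (9.25%, 29.4% and 25.8%), and 8 after quantile normalization (22.1%). RHBDD2-CKO gave 27, 50 and 34 with the block (37.7%, 49.9% and 45.2%) and 52, 58 and 37 with replicates 2 and 3 (34.9%, 45.8% and 39.4%) against these clones in that order, and 13 against C9orf89-CKO with voom (29.9%). Counting pseudogenes, the share of fragments was 9.26% in Non-target, 7.75% in RHBDD2-CKO, 8.77% in C9orf89-CKO, 9.05% in MLPH-CKO and 9.53% in MAGI2-CKO.

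Leaving out 1 library at a time, the members higher and lower were 3 to 8 and 1 to 9, 5 to 11 and 2 to 7, 6 to 9 and 4 to 16, and 2 to 5 and 11 to 32. RHBDD2-CKO had 32 lower without its replicate 1 (44.6% of the members called, against 31.7% of all genes), 11 without its replicate 3 (16.9% against 27.0%) and 12 without Non-target replicate 2 (18.1% against 26.4%), and MLPH-CKO 16 lower without its replicate 1 (26.5% against 28.7%). The medians were -0.133 to -0.071, -0.032 to 0.071, -0.204 to 0.030 and -0.375 to -0.223. The F test gave 22 to 42, and 55.7% to 61.1% of all genes. Of all genes, 1648 to 2155 were higher and 1605 to 2210 lower in C9orf89-CKO, 2187 to 2820 and 2511 to 3149 in MAGI2-CKO, 1866 to 2419 and 1969 to 2604 in MLPH-CKO, and 2191 to 2873 and 2069 to 2771 in RHBDD2-CKO. Clone pairs gave 4 to 9 (MAGI2-CKO, C9orf89-CKO; 2594 to 3778 of the 16175 genes tested), 1 to 6 (MLPH-CKO, C9orf89-CKO; 9.63% to 14.6% of all genes), 2 to 10 (MLPH-CKO, MAGI2-CKO; 15.3% to 21.9%), and for RHBDD2-CKO 6 to 13, 16 to 37 and 10 to 21 against the others in that order (23.3% to 29.9%, 35.1% to 42.4% and 30.8% to 37.6%). The 37 against MAGI2-CKO, without RHBDD2-CKO replicate 1, were 44.6% of the members against 38.2% of all genes. The shares were 8.66% to 8.94% in Non-target, 8.32% to 8.48%, 8.96% to 9.19%, 8.05% to 9.07% and 7.04% to 7.64% in the clones. RPL22L1 and RPL22 passed in all 4 clones in all 12 settings and all 15 omissions, and RPL10 did so in RHBDD2-CKO. RPLP2 in RHBDD2-CKO passed in 6 of 15 omissions, RPS20 in C9orf89-CKO in 7, NPM1 in MLPH-CKO in 6 and RPL15 in MAGI2-CKO in 9. The 75 named values past the threshold kept their sign, but 76 of their 894 values in other settings and 102 of 1125 in omissions no longer passed. Of 121 named values not past it, 53 passed in at least 1 setting and 50 changed sign in at least 1.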
